A study of Sus scrofa with 6 samples.

Results

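CST6, SOWAHA, TJP3 and EHF are 4 pig genes on chromosome 2 that are known chiefly from epithelial cells. They were picked by name on the difference between parthenogenetic and control embryos in these same data, so every value of that difference given for them here is a description and carries no test. All 4 passed the filter on low counts and are 4 of the 1652 genes tested, of 30509 genes with a listed transcript and 2705 such genes on chromosome 2.

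The RNA came from whole pig embryos at embryonic day 21, 3 parthenogenetic (PA) and 3 control (CN), all labelled Landrace x Yorkshire x Duroc (LYD). PA embryos carry maternal genomes only. They were made by electrical activation of in vitro matured oocytes from LYD ovaries and grew after transfer to a pair of Landrace x Yorkshire (LY) surrogate gilts. CN embryos came from natural mating of a pair of LY gilts with boars whose breed the methods do not give, and are labelled untreated. With a pair of gilts in each group, the 3 embryos of a group cannot come from 3 separate gilts. Which embryos shared a gilt is not given. In vitro maturation, embryo transfer and the breed of the egg's mother therefore differ between the groups together with parthenogenesis, and their parts in any difference cannot be told apart. Intact embryos of comparable size had been selected in both groups. No sorted cells were measured, so a lower value in a whole embryo can reflect fewer cells of a type or less RNA per cell, and these cannot be told apart either. The tables held 3100284 to 3573406 estimated counts per embryo, of which transcripts annotated on chromosome 2 took 82.8% in PA1 and 89.5% to 92.7% in the other embryos. Chromosome 2 likewise took 85.8% to 94.2% of the TPM, so a TPM value here is close to a share of chromosome 2 transcripts and is not comparable with that of a whole transcriptome. A level of 3 counts, used as the floor, corresponded to 0.849 to 0.938 CPM, counts scaled to the effective library size.

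Epithelial sheets are sealed and polarised by junction complexes at the apical side of the cells, and the genes for these complexes are controlled by a small set of epithelial transcription factors. TJP3 encodes ZO-3, a scaffold protein beneath the tight junction strands. EHF encodes an ETS-family transcription factor found mainly in epithelia. CST6 encodes cystatin E/M, a secreted inhibitor of the lysosomal cysteine proteases legumain and cathepsins L and V that is best known from the epidermis. SOWAHA encodes an ankyrin repeat protein of the sosondowah family, whose role in the embryo is little described.

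The promoter windows of CST6 and SOWAHA are shown because these genes had the largest differences between the groups, and that of TJP3 because it had the smallest. Each window holds the 250 bases before the first base of the transcript on Sscrofa11.1, written 5′ to 3′ on the strand of the gene, and capitals mark GGGCGG, the GC box bound by Sp-family factors, found on either strand. The CST6 window is chr2:6325520-6325769 (minus strand), the SOWAHA window chr2:135139028-135139277 (plus strand) and the TJP3 window, for the transcript variant X1, chr2:74971432-74971681 (minus strand).
CST6: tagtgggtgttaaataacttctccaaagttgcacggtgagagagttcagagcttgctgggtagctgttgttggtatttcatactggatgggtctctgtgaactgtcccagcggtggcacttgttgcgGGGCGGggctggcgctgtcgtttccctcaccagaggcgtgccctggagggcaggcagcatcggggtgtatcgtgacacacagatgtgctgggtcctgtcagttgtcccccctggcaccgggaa
SOWAHA: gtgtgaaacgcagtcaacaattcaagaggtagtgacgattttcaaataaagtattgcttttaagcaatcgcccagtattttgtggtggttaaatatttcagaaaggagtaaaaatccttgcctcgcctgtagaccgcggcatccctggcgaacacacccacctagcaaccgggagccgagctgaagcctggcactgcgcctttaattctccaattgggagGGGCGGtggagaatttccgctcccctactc
TJP3: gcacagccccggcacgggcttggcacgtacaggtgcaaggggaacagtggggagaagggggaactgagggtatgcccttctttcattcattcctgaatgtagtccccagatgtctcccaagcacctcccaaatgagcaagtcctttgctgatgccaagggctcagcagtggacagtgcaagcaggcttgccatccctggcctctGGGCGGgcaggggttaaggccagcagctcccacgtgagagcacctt

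Each of these windows held 1 GC box, with its nearest base 118 bases before the start in CST6, 25 in SOWAHA and 41 in TJP3. Over 1998 chromosome 2 promoters of protein-coding genes, 41.8% held the same letters, so their presence does not set these genes apart. Neither the ETS core CCGGAA (13.3% of the promoters), the Grainyhead site AACCGGTT (0.0501%), the AP-1 site TGANTCA (6.71%) nor TATAAA (11.3%) was present on either strand in the 3 windows or in that of EHF variant X6. None of these motifs contains another. Base composition varied among the 4 genes. The ratio of observed to expected CpG was 0.50 in CST6, 0.79 in SOWAHA, 0.23 in TJP3 and, for the 3 variants of EHF with counts, 0.53 in X6, 0.38 in X4 and 0.27 in X9, beside a median of 0.54 over all 1998 promoters. Part of the CST6 window lies inside the annotated span of a long non-coding RNA, LOC106509306, which runs on the opposite strand from 133 bases away and held at most 4 counts in any embryo.

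CST6 was the most abundant of the 4 genes and was lower in PA embryos. It lies at chr2:6323737-6325519 and has a single annotated transcript of 3 exons. Its level in TPM, a measure scaled to transcript length and to the total of the embryo, was 307, 406 and 469 in the CN embryos and 93.0, 124 and 96.1 in the PA embryos. The groups did not overlap, and the lowest CN embryo was 2.47 times the highest PA embryo. The means were 394 ± 81.7 TPM in CN and 104 ± 17.2 in PA (SD, n = 3 each), which is 26.5% of the CN level. Behind these levels stood 343 to 498 estimated counts per CN embryo and a mean of 119 ± 18.4 (SD, n = 3) per PA embryo, far above the floor. In the edgeR fit the log2 fold change of PA over CN was -1.84 with a standard error of 0.18. Among the tested genes, 76.2% had a lower mean TPM than CST6 in CN and 47.8% in PA.

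SOWAHA showed the largest proportional difference. The gene is a single exon of 3616 bases at chr2:135139278-135142893, so all of its counts belong to 1 transcript. Its level was 19.5, 27.2 and 20.5 TPM in the CN embryos and 3.24, 4.16 and 4.70 TPM in the PA embryos. All PA embryos lay together well below all CN embryos, with the lowest CN value at 4.14 times the highest PA value. The group means were 22.4 ± 4.17 and 4.03 ± 0.74 TPM (SD, n = 3 each), so PA embryos held 18.0% of the CN level. These rest on 141, 168 and 139 counts in CN and on 25, 30 and 33 counts in PA. The log2 fold change was -2.40 (SE 0.20).

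EHF was the least abundant gene and was lower in PA by a narrow margin. It spans chr2:26287244-26340222 and has 9 annotated transcripts with 8 different first bases. CN embryos held 4.16, 8.29 and 8.32 TPM, and PA embryos held 3.44, 2.07 and 2.56 TPM. The groups did not overlap, but CN1 lay closer to the PA embryos than to CN2 and CN3, and it was only 1.21 times PA1. The means were 6.92 ± 2.39 TPM in CN and 2.69 ± 0.70 in PA (SD, n = 3 each), a ratio of 2.57. Its estimated counts ranged from 47 to 88 per CN embryo and from 23 to 41 per PA embryo. The fitted log2 fold change of -1.25 (SE 0.32) moved between -1.55 and -1.08 over the 12 other settings and left-out embryos.

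TJP3 did not separate the groups. The gene lies at chr2:74938153-74971431, and its 3 annotated transcripts have 21 exons each. Its level was 18.9, 27.7 and 21.8 TPM in the CN embryos and 26.8, 12.2 and 18.0 TPM in the PA embryos. PA1 was higher than 2 of the 3 CN embryos while PA2 was the lowest of all, and the PA embryos differed from each other by a factor of 2.20. The means of 22.8 ± 4.48 and 19.0 ± 7.36 TPM (SD, n = 3 each) differed by less than the spread within PA. The log2 fold change was -0.16 (SE 0.31). It turned to 0.08 without PA2 and to -0.58 without PA1, so its sign rests on single embryos.

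**Figure D1:**
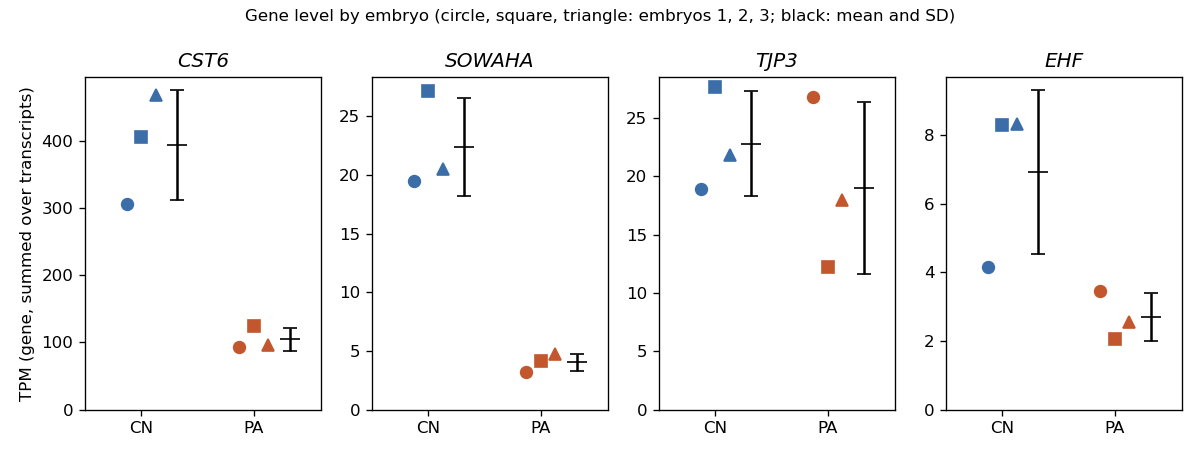
Level of CST6, SOWAHA, TJP3 and EHF in TPM (vertical axes from 0, each on its own scale) in 3 CN and 3 PA embryos. Symbols mark embryos 1, 2 and 3, numbers that no label pairs between groups, and the black bar gives the mean and SD. The PA points lie below all CN points for CST6, SOWAHA and EHF, where the gap of EHF is only 1.21-fold, whereas for TJP3 PA1 lies among the CN points at 26.8 TPM and PA2 and PA3 lie below them.

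Of the 4 genes, 3 had every PA embryo below every CN embryo, in CPM as in TPM, against 14.2% of all tested genes. The thresholds of an adjusted p of 0.05 and a log2 fold change below -1 were met by CST6 and SOWAHA, beside 2.78% of all tested genes (46 of 1652). EHF met them in 5 of 12 other fits (DESeq2, library totals, no expression filter, and without CN1 or PA1). Because the genes were chosen on this contrast, nothing is read from these shares and calls. In CPM, the ratio of CN to PA was 3.58 for CST6, 5.31 for SOWAHA, 2.40 for EHF and 1.14 for TJP3, so the choice of scale moved none of them far. The median log2 fold change of the 4 genes was -1.55, and that of all tested genes was 0.016.

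The order of the mean levels was the same in both groups, but the genes that overlapped differed. In CN, CST6 stood first by TPM, TJP3 (22.8 ± 4.48) and SOWAHA (22.4 ± 4.17) could not be separated, and EHF stood last with no embryo in reach of either. In PA, TJP3 stood alone in the second place, and SOWAHA (3.24 to 4.70 TPM) and EHF (2.07 to 3.44 TPM) overlapped. The share of tested genes below SOWAHA fell from 24.8% in CN to 10.4% in PA, and that below EHF from 13.6% to 7.69%. For TJP3 the shares were 25.1% and 24.5%.

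Annotated transcript variants differ for TJP3 and EHF. For TJP3 the variant X1 held most of the gene in both groups, on average 86.0% ± 14.0 of the TPM of a CN embryo and 95.7% ± 6.87 of that of a PA embryo (SD, n = 3 each). For EHF, 3 of the 9 variants had any counts, and the variant that held them changed from embryo to embryo. In CN1 all 47 counts were assigned to X4, in CN2 all 79 to X6, and in CN3 66.4 to X4 and 21.6 to X9. In PA1 and PA2 all counts, 41 and 23, went to X6, and in PA3 all 28 went to X9. With so few reads per embryo the assignment between variants that share exons is an estimate. X4 had counts only in CN1 and CN3 and none in CN2, so no difference between the groups is read from the variants.

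**Figure D2:**
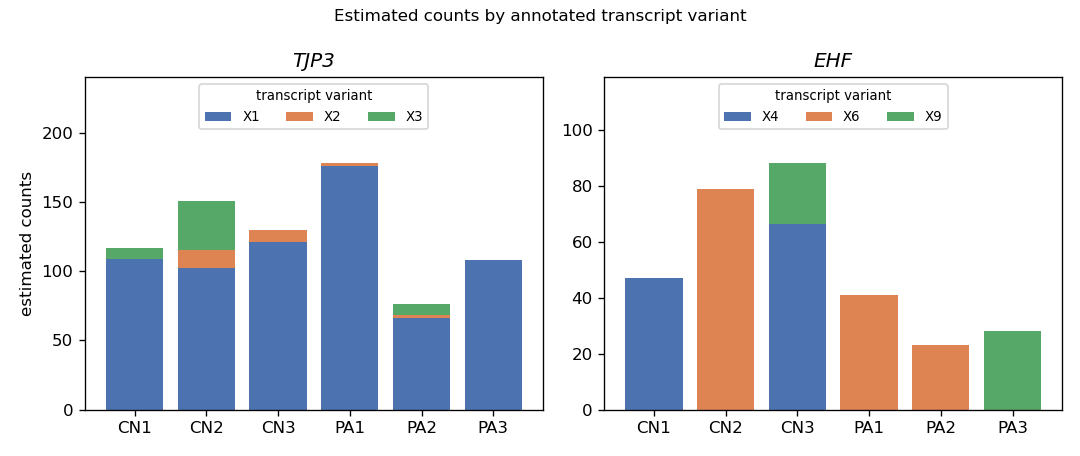
Estimated counts (vertical axes) assigned to each annotated transcript variant of TJP3 and EHF in each embryo, stacked so that the bar height is the count of the gene. X1 fills most of every TJP3 bar, whereas the EHF bars are filled by X4, X6 or X9 depending on the embryo, from 23 counts in PA2 to 88 in CN3.

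To place the 4 genes among others of related function, 5 lists of 166 genes were drawn up that cover junction and polarity proteins, epithelial transcription factors, epithelial surface and secreted proteins, cystatins and cathepsins with cornified envelope proteins, and paralogs of the 4 genes. On chromosome 2, 39 of them have transcripts and 31 passed the filter. At an adjusted p below 0.05 (edgeR, over all 1652 genes), 6 of the 31 were lower in PA, or 19.4%, beside 4.42% of all tested genes. No listed gene passed as higher in the main edgeR fit, beside 2.12% of all tested genes. With the replicate number as a block, edgeR called CXCL14 higher, and with no expression filter it called APC and CXCL14. At an unadjusted edgeR p below 0.05, 4 were higher and 11 lower. No share of all tested genes stands beside this or the other unadjusted counts below, so they are descriptions only. DESeq2 called 7 lower and 1 higher, CXCL14. Every PA embryo lay below every CN embryo for 11 of the 31 genes, 35.5% beside 14.2%. The median log2 fold change of the 31 genes was -0.17, and 16 of them were below 0. The lists were drawn up with earlier results of these data known, so nothing is read from their shares beside those of all tested genes.

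Among the 13 junction and polarity genes, to which ZO-3 belongs by function, 1 fell. This was CRB3, which encodes the Crumbs protein of the apical membrane that organises epithelial polarity. CRB3 measured 171, 156 and 141 TPM in CN and 66.3, 59.2 and 68.0 TPM in PA, with no overlap, and its log2 fold change was -1.21 (SE 0.14, edgeR adjusted p = 0.00208). The other 12 did not pass, the median of the 13 genes was 0.03, and 5 of them were below 0. In 4 of the 13, CRB3 among them, every PA embryo lay below every CN embryo in CPM, beside 14.2% of all tested genes. The reverse held for CTNNA1 and APC. By mean CPM, which is not scaled to length, the most abundant of the 12 were CTNNA1 (alpha-catenin, 0.18, edgeR adjusted p = 0.201), CTNND1 (p120-catenin, 0.07, adjusted p = 0.626), CTTN (cortactin, 0.03, adjusted p = 0.846) and APC (a scaffold of Wnt signalling and microtubules, 0.32, adjusted p = 0.174), where the first value of each is the log2 fold change.

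Of 5 tested epithelial transcription factors, 2 fell. OVOL1, a zinc-finger repressor that keeps epithelial cells from mesenchymal programmes, measured 16.9, 23.7 and 21.8 TPM in CN and 5.69, 5.92 and 6.25 TPM in PA. The PA embryos lay within a narrow band below all CN embryos, with a log2 fold change of -1.73 (SE 0.19, edgeR adjusted p = 0.00159). ESRRA, a nuclear receptor of mitochondrial metabolism that is not restricted to epithelia, fell from 423 ± 31.7 to 256 ± 14.2 TPM (SD, n = 3 each), a log2 fold change of -0.65 (SE 0.10, edgeR adjusted p = 0.00677). NR2F6, an orphan nuclear receptor, was at -0.38 (edgeR adjusted p = 0.0559), with no overlap between the groups. It did not pass in the main edgeR fit, but DESeq2 called it. PITX1, a homeobox factor of the hindlimb and oral ectoderm, was at 0.26 (edgeR adjusted p = 0.226) and did not pass. ELF5, an ETS factor of trophoblast and glands and the only listed paralog of the 4 genes on chromosome 2, lies near EHF on the chromosome. Its log2 fold change was 0.45 (SE 0.39, edgeR adjusted p = 0.563), with embryos of both groups mixed. CDX1 and ASCL2 had at most 7 counts in any embryo and were not tested.

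Of 11 tested surface and secreted proteins, 2 fell. EPS8L2, an actin-capping protein of stereocilia and other apical protrusions, measured 154, 196 and 158 TPM in CN and 41.8, 39.0 and 47.9 TPM in PA. Of the 31 listed genes it had the lowest log2 fold change, at -1.91 on the log2 scale (SE 0.11, edgeR adjusted p = 4.29e-05). AP1M2, the epithelial subunit of the clathrin adaptor that sorts proteins to the basolateral membrane, fell from 111 ± 9.76 to 46.9 ± 7.91 TPM (SD, n = 3 each), a log2 fold change of -1.18 (SE 0.14, edgeR adjusted p = 0.00208). CXCL14, a chemokine of epithelia (0.37, edgeR adjusted p = 0.067), CD82 (-0.19, adjusted p = 0.276) and CD151 (-0.25, adjusted p = 0.109), both tetraspanins, and ANO1, a chloride channel (0.09, adjusted p = 0.721), did not pass.

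Of the list built around CST6, 2 cathepsins could be tested and 1 fell. CTSD, the main lysosomal aspartic protease, which is not a cystatin target, held 3607, 4237 and 3496 TPM in CN and 1337, 1246 and 1275 TPM in PA. It fell by 1.48 on the log2 scale (SE 0.11, edgeR adjusted p = 1.42e-04), with no overlap. CTSF, a cysteine cathepsin, was at 0.01 (edgeR adjusted p = 0.997).

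**Figure D3:**
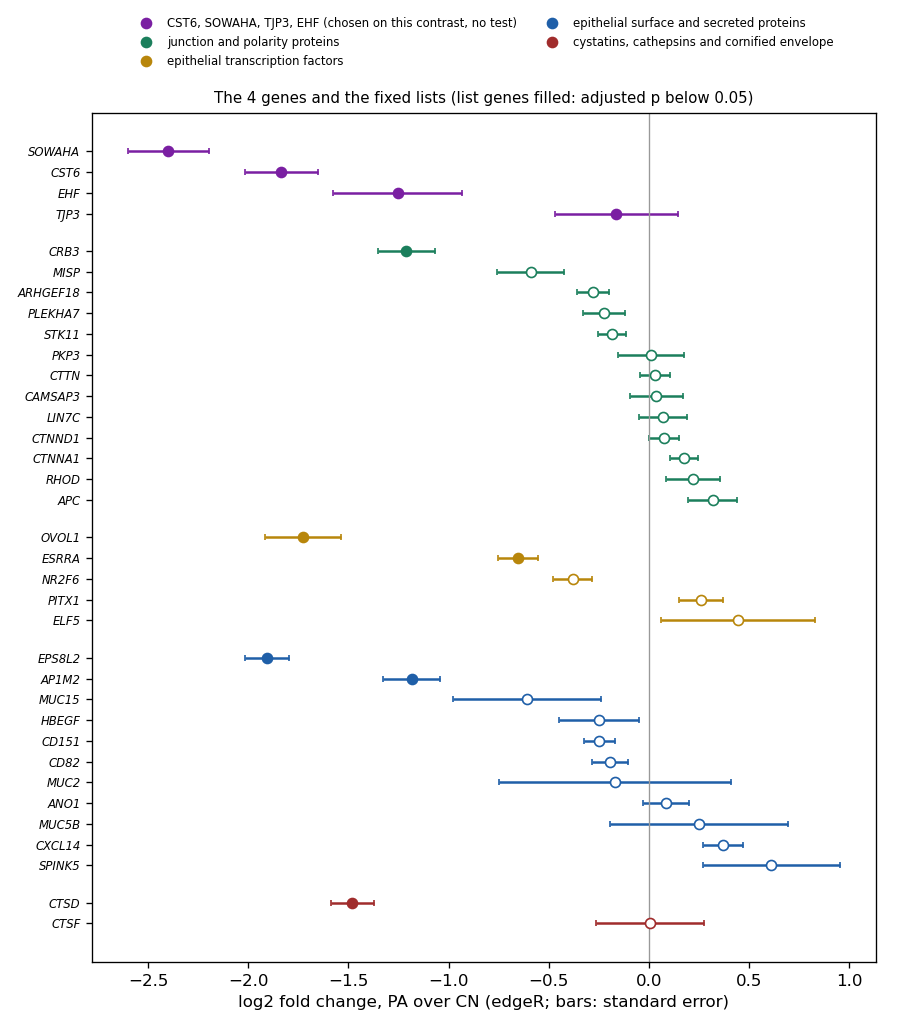
Log2 fold change of PA over CN (horizontal axis, edgeR, bars give the standard error) for CST6, SOWAHA, EHF and TJP3 and for the tested genes of 4 fixed lists; filled list genes had an adjusted p below 0.05. CRB3, OVOL1, ESRRA, EPS8L2, AP1M2 and CTSD lie to the left with filled points, and TJP3 lies at -0.16.

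**Figure D4:**
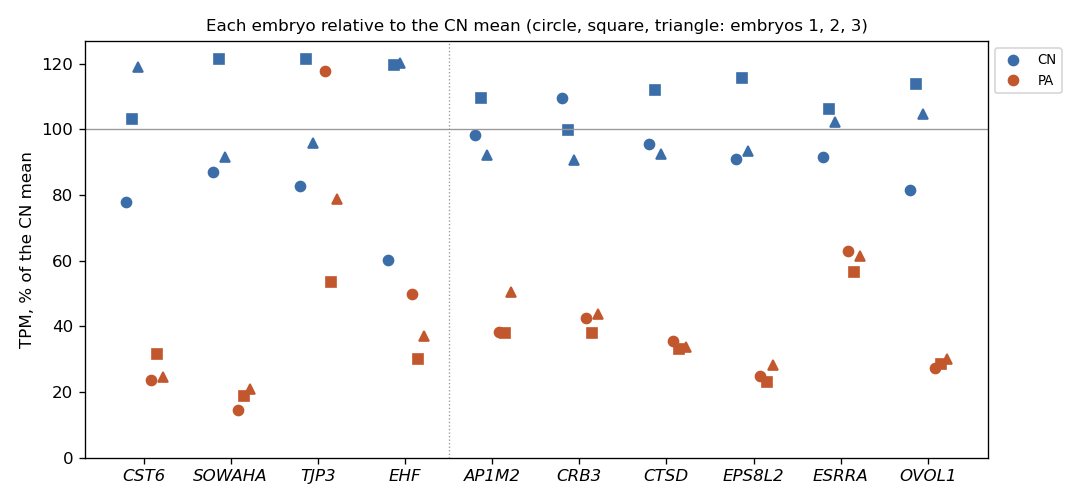
TPM of each embryo as a percentage of the CN mean (vertical axis, from 0) for CST6, SOWAHA, TJP3 and EHF, left of the dotted line, and for the 6 listed genes that fell, right of it. PA embryos lie at 14.5% to 31.5% of the CN mean for CST6 and SOWAHA and at 53.5% to 118% for TJP3, while ESRRA is the least lowered of the 6 at 56.6% to 63.0%.

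Since whole embryos were measured, the makeup of the tissue was followed with marker lists of 8 cell types, taken on chromosome 2. The sum of the mesonephros and kidney tubule markers was lower in PA, as were CST6, SOWAHA and EHF. The muscle sum and the erythroid and endothelial sum showed this difference between groups too. Among PA embryos the tubule sum was lowest in PA2, where CST6 was highest and EHF lowest, while SOWAHA was lowest in PA1. The tubule markers summed to 850 to 1265 TPM in CN and 259 to 447 TPM in PA. Like the lists above, the marker lists were drawn up with earlier results of these data known, so nothing is read from their counts. At an adjusted p below 0.05 (edgeR), 4.42% of all tested genes were lower in PA, and of the 9 markers 6 fell. These were SLC22A8 (log2 fold change -2.82, edgeR adjusted p = 0.00348), SLC22A12 (-4.32, adjusted p = 4.73e-04), SLC5A12 (-2.10, adjusted p = 0.00665), SLC34A1 (-2.51, adjusted p = 0.00324), DMGDH (-2.84, adjusted p = 0.00208) and WT1 (-0.47, adjusted p = 0.0217). SLC5A12 and SLC34A1 lost their calls with no expression filter (edgeR adjusted p = 0.0988 and 0.0970). WT1, listed for the mesonephros and not specific to tubule cells, lost its call without CN2, CN3, PA2 or PA3. SLC22A6, an organic anion transporter of the same cells, did not pass and lay at 0.13. BHMT, a methyltransferase of liver and kidney, lay at 0.16 and KLHL3, a ubiquitin ligase adaptor of the distal tubule, at -0.45, which DESeq2 called. The part of the tubule in the levels of the 4 genes was not tested.

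The surface ectoderm markers summed to 373 to 513 TPM in CN and 479 to 522 TPM in PA, but PITX1 (405 ± 68.1 and 458 ± 19.1 TPM, SD, n = 3 each) made up most of this sum, which therefore says little of the ectoderm. PKP3, a desmosome plaque protein, was at 29.4 ± 4.50 and 28.1 ± 3.65 TPM, and OVOL1, which also stands among the transcription factors above, was the 1 of 4 that fell. Trophoblast markers summed to 82.5 to 97.4 and 111 to 164 TPM, mostly from PHLDA2 (70.7 to 90.3 and 95.0 to 152 TPM), which the sum mainly follows. PHLDA2 is an imprinted gene expressed from the maternal allele, and the part of this in the sum was not tested. No gene of 2 tested passed the threshold in edgeR or DESeq2, 1 was higher at an unadjusted p below 0.05, and PAG6, a pregnancy-associated glycoprotein gene of trophoblast, had at most 1 count in any embryo. For mesenchyme the ranges were 16017 to 16737 and 15324 to 18372 TPM, mostly from MDK, a secreted growth factor, and none of 8 genes passed with edgeR, where 2 were higher at an unadjusted p below 0.05 and DESeq2 called 1, TGFBI, a secreted matrix protein. Muscle markers summed to 1226 to 1307 TPM in CN and 724 to 910 TPM in PA, where TNNI2, fast troponin I, fell (-1.34, edgeR adjusted p = 0.00169). Of the 6 muscle genes 5 were lower at an unadjusted p below 0.05, again with no share of all tested genes beside it. In 4 of the 6 every PA embryo lay below every CN embryo in CPM, beside 14.2% of all tested genes. DESeq2 called TNNI2, CSRP3 and MYOT. Erythroid and endothelial markers summed to 1516 to 1877 and 1136 to 1357 TPM, and KLF2 (-0.68, edgeR adjusted p = 0.0129) and PLVAP (-0.36, adjusted p = 0.0402) fell, of which PLVAP lost its call whichever embryo was left out and KLF2 without CN2 or CN3. Of these 5 genes 4 were lower at an unadjusted p below 0.05, likewise with no such share. In 4 of the 5 every PA embryo lay below every CN embryo in CPM, beside the same 14.2%. DESeq2 also called KLF1. The sum of the neural markers was higher in PA, at 842 to 1041 and 1103 to 1400 TPM, and 3 of 5 rose, PAX6 by 0.84, SYT13 by 0.70 and TUBB4A by 0.41 on the log2 scale. TUBB4A, a tubulin, made up most of this sum (753 ± 75.5 and 956 ± 131 TPM, SD, n = 3 each). TUBB4A lost its call in 7 of 12 other settings, and DESeq2 also called NEUROG1.

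The sum of the gut and liver endoderm markers rested on F2 (prothrombin), SERPING1 (C1 inhibitor) and C3 (complement), secreted proteins of the liver, among 8 genes. It was 5943, 6788 and 6862 TPM in the CN embryos and 7395, 5264 and 5000 TPM in the PA embryos. PA1 held the highest value and PA3 and PA2 the lowest. Not every marker had this order, as INS (insulin) was at 39.9 TPM in PA1 and 91.4 TPM in PA3. TJP3 was also higher in PA1 than in PA2 and PA3, and the part of liver RNA in its level was not tested. None of the 5 tested endoderm markers passed in edgeR, in DESeq2 or at an unadjusted p below 0.05. None of the chromosome 2 markers of any list was at 0 in all embryos.

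**Figure D5:**
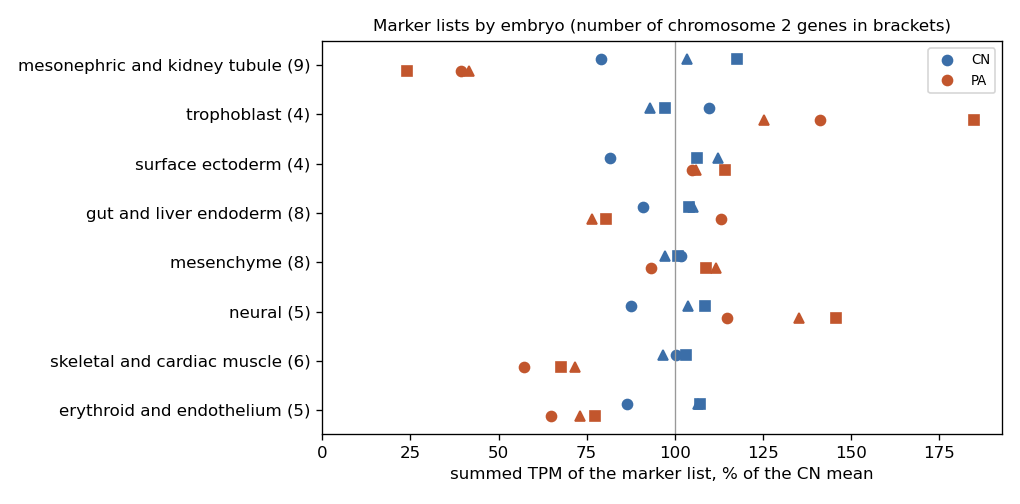
Summed TPM of the chromosome 2 genes of 8 marker lists in each embryo, as a percentage of the CN mean (horizontal axis, from 0); the number of genes stands in brackets. The tubule, muscle, and erythroid and endothelial lists have all PA embryos to the left of all CN embryos, the trophoblast and neural lists, led by PHLDA2 and TUBB4A, have them to the right, and the gut and liver list has PA1 on the right and PA2 and PA3 on the left.

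The likeness of other genes to each of the 4 was measured as the root mean square difference between log2(CPM + 0.5) profiles over the 6 embryos, each centred on its own mean, among 1668 chromosome 2 genes. The 6 embryos share the 2 groups, so a small value can mean no more than a like difference between groups. For CST6 the nearest genes were OVOL1 (0.183), C2H11orf86 (0.190) and CDHR5 (0.230), a protocadherin of brush borders. For SOWAHA they were BBOX1 (0.235), the last enzyme of carnitine synthesis, CDHR5 (0.249) and EPS8L2 (0.260). CST6 and SOWAHA were near each other (0.360).

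TJP3 had other neighbours in this measure. They were CREB3L3 (0.116), a liver and gut transcription factor, LOC102165061 (0.137) and GCDH (0.159), an enzyme of lysine breakdown. CREB3L3 held 252, 317 and 287 CPM in CN and 423, 190 and 204 CPM in PA, the same high PA1 and low PA2 as TJP3. LOC102165061 was not tested and held 0.600 to 1.83 CPM, near the floor, so its place rests on few counts. The distance of TJP3 from SOWAHA was 1.13 and from CST6 0.913. For EHF the nearest genes were ADGRE3 (0.221), MAP4K2 (0.300) and S1PR4 (0.305), of which ADGRE3 and S1PR4 had too few counts to be tested. EHF lay at 0.472 from CST6, 0.534 from TJP3 and 0.700 from SOWAHA.

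The tested genes that flank CST6 and SOWAHA did not pass the threshold. CATSPER1, a sperm calcium channel gene 2047 bases from CST6, was at 0.05 (SE 0.26, edgeR adjusted p = 0.933). SHROOM1, an actin-binding protein gene 4935 bases from SOWAHA, was at 0.38 (SE 0.12, edgeR adjusted p = 0.102), and SEPT8, a septin gene 34794 bases away on the other side, at 0.07 (adjusted p = 0.672). TJP3 shares part of its span with APBA3 on the opposite strand, but the exons have no base in common, and APBA3 was at -0.07 (edgeR adjusted p = 0.797). MRPL54 (-0.09, edgeR adjusted p = 0.627) and PIP5K1C (-0.12, adjusted p = 0.584) flank TJP3. Beside EHF, a pseudogene, LOC100525908, had no counts, and a long non-coding RNA, LOC106509379, had at most 15 counts (0.60, edgeR adjusted p = 0.666).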

How the data were processed

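Whole-embryo RNA of 3 PA and 3 CN embryos, grouped by their labels, had been made into poly(A) libraries with no strand selection stated. The authors quantified transcripts with Salmon 1.3.0 in mapping-based mode and deposited estimated counts and TPM for each of 81496 transcripts, with their lengths; the submitters' notes also name STAR 2.7.5. Transcripts were summed to genes with NCBI Annotation Release 106 of Sscrofa11.1, and 174 of them had no entry and held 6.91% to 16.9% of the counts. Counts were rounded and fitted in R 4.3.3 with edgeR 4.0.16 (TMM, average-length offset, filterByExpr with a minimum count of 10 and total of 15, robust quasi-likelihood test, Benjamini-Hochberg over 1652 genes), after the fit was tested on simulated data. Standard errors were taken from the F statistic, as the size of the log2 change over the root of F. DESeq2 1.42.0, scaling, filter, block and left-out embryos were alternatives. P-values measure the spread between these embryos, and floors cover counting error only. The 4 genes, the lists and the tests were chosen with earlier results of these data known. Named genes were every listed gene that passed, up to 4 of the most abundant tested genes (mean CPM) of each functional list that did not, the 3 genes nearest to each of the 4 in profile and the flanking genes; marker genes that did not pass with edgeR were named after their values were seen. Promoters were read from the RefSeq genome of the same build. Methylation data were not used here.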

Additional observations from a re-analysis of the deposited data

How the results depend on the processing

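Under 15 alternative settings, 351 values of 38 results were recomputed, and no called value changed sign. Tested genes lost a call, or a count of genes fell by over 1.5 times, in 25 of them, and in 6 a count rose by as much; CST6, SOWAHA, TJP3 and EHF have no test and are given separately. With no expression filter, genes past both thresholds rose from 48 to 77 and genes at an adjusted p below 0.05 from 108 to 196, and DESeq2 gave 168 of the latter. Leaving out 1 embryo gave 48 to 128. Listed genes that were lower numbered 6 or 7 throughout, the added gene being NR2F6. Those higher numbered 1 with DESeq2 and with the replicate block (CXCL14) and 2 with no expression filter (APC and CXCL14). As descriptions, the log2 fold changes ranged from -1.98 to -1.69 for CST6, -2.46 to -2.29 for SOWAHA, -1.55 to -1.08 for EHF and -0.58 to 0.08 for TJP3, which was above 0 only without PA2; since the genes were chosen on this contrast, these ranges are no test of them. Same-numbered embryos deviated together at correlations of 0.261, 0.125 and 0.044 over 1652 genes. Embryos of different number were not compared in this way, so the values cannot tell whether the numbers pair them. The replicate block gave 43 genes past both thresholds and 104 at an adjusted p below 0.05, and log2 fold changes of -1.83, -2.40, -0.24 and -1.25 for CST6, SOWAHA, TJP3 and EHF. The depth behind EHF (23 to 88 counts) and SOWAHA in PA (25 to 33) limits these values.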
